A study of Mus musculus with 2 samples.

Results

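The enzymes and cofactors that write, maintain and erase DNA methylation were followed through 10 mouse genes, namely Uhrf1, Uhrf2, Dnmt1, Usp7, Dnmt3a, Dnmt3b, Dnmt3l, Tet1, Tet2 and Tet3. They were chosen by name, and every listed region that overlapped the annotated span of one of them, widened by 5 kb on each side, was taken. This gave 41 regions of the 35861 in the deposited list, and each of the 10 genes had at least 1. Every region in the list had more signal in Control than in knockout cells, because the list was made that way. The question addressed is therefore where, along these genes, methylated DNA captured from Control cells was less abundant in cells without Uhrf1.

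The cells were primary chondrocytes from the knee cartilage of C57BL/6 mice at postnatal day 3. Uhrf1 conditional knockout (cKO) cells were set against Control cells, with 1 library each. Both were grown to confluence and then given recombinant human BMP-2, a growth factor of cartilage and bone, at 100 ng/ml for 24 hours, so no untreated cells enter the comparison. DNA carrying methylated CpG was captured with the protein MBD2 and sequenced (MBD-seq). The labels name neither the Cre driver nor the deleted part of Uhrf1, and give neither the exact Control genotype nor the number of mice per library. A list of DNA regions holds no RNA level, so the chondrocyte label could not be checked against marker genes. With 1 library per genotype no difference has a replicate check, and no p-value was computed.

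Methylation of cytosine in CpG is copied after each round of DNA replication. UHRF1 recognises the hemimethylated sites left behind the fork and recruits DNMT1, the maintenance methyltransferase, while USP7 is a deubiquitinase known to bind and stabilise both. DNMT3A and DNMT3B set new methylation, DNMT3L is their catalytically inactive cofactor in germ cells, and the TET dioxygenases oxidise 5-methylcytosine as the first step of its removal. UHRF2 is a close relative of UHRF1 that does not replace it in maintenance.

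The captured signal depends on CpG, so the sequence around the starts of these genes is shown first. RefSeq (GRCm38.p6) lists 17 windows for the 10 genes, each running from 250 bases before to 50 bases after a transcription start. The Dnmt1 set is shown because its 3 windows differ most in CpG count within a single gene. The Dnmt3a and Dnmt3l windows have a region just upstream, and the Uhrf1 window belongs to the targeted gene. The sequences read 5′ to 3′ along the gene, with every CpG in capitals.
Dnmt1, outermost start, chr9:20959839-20960138, minus strand: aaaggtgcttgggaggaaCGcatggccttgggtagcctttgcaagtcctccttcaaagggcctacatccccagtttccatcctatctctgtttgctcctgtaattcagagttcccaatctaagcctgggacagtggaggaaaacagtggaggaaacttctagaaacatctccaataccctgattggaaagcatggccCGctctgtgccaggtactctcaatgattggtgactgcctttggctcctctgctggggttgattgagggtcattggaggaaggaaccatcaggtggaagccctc
Dnmt1, middle start, chr9:20952930-20953229, minus strand: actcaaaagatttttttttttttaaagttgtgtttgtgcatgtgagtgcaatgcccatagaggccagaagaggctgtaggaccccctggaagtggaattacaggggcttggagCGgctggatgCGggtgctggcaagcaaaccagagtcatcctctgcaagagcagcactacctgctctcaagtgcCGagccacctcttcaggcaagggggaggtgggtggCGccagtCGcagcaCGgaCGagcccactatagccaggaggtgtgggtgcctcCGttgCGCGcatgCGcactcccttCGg
Dnmt1, innermost start, chr9:20952574-20952873, minus strand: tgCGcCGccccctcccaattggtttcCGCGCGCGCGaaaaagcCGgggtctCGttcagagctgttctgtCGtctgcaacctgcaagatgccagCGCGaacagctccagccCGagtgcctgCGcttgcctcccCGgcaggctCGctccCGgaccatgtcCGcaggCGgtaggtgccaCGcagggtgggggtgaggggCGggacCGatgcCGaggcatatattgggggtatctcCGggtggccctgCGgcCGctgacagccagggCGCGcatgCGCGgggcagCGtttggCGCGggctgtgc
Dnmt3a, internal start, chr12:3891494-3891793, plus strand: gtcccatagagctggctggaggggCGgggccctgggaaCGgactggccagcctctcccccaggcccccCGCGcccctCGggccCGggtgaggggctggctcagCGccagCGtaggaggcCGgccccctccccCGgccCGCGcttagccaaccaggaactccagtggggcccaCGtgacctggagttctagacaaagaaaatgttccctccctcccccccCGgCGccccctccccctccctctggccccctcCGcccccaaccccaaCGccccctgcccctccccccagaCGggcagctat
Dnmt3l, middle start, chr10:78049592-78049891, plus strand: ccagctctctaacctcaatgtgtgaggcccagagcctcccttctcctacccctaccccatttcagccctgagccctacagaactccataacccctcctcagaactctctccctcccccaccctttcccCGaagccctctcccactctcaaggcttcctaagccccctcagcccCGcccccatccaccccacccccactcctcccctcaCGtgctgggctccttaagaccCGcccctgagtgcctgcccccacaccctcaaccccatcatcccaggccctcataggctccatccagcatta
Uhrf1, inner start, chr17:56304063-56304362, plus strand: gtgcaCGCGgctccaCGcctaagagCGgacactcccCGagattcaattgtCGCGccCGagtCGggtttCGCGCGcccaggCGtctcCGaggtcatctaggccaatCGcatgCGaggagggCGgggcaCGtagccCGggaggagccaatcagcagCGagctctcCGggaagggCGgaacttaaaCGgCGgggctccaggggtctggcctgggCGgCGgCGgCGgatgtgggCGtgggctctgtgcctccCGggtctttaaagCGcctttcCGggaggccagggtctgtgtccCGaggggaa
The Dnmt1 windows held 2, 12 and 33 CpG in this order, against a median of 13 over 21262 windows of protein-coding genes. The Dnmt3a, Dnmt3l and Uhrf1 windows shown held 18, 4 and 33 CpG. None of the 17 windows was overlapped by a region, where 0.823% of all windows were. A region lay within 1 kb of 3 windows (17.6%, against 4.2% of all windows), those of the outermost Dnmt1 start, the internal Dnmt3a start and the middle Dnmt3l start. The member share rests on these 3 windows, was not matched for gene length and was not tested. The share of all windows with a region within 1 kb was 2.15% with at most 4 CpG, 6.86% with 5 to 9 CpG and 2.31% with 30 CpG or more. Of the 7 member windows with at least 30 CpG, none had a region within 1 kb.

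**Figure D1:**
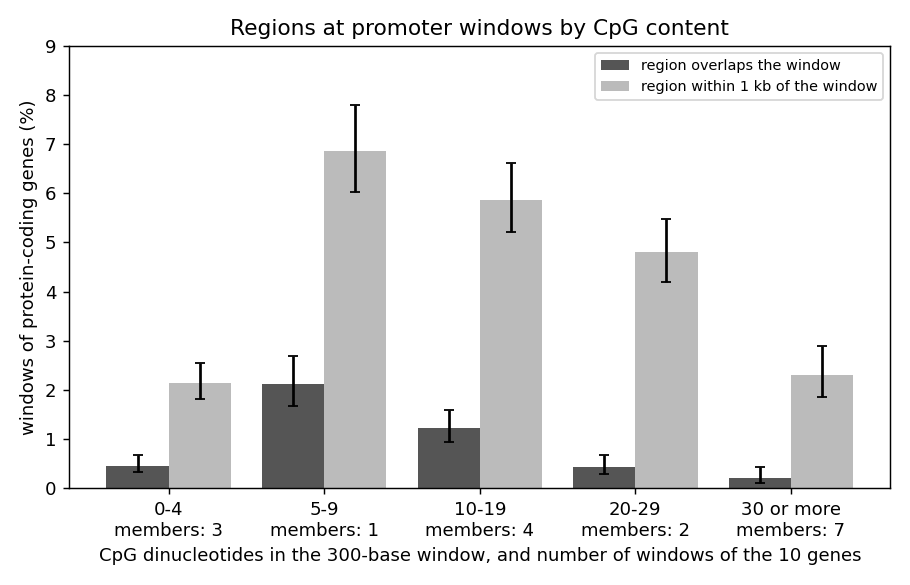
Share of RefSeq promoter windows of protein-coding genes (y axis, %) that a region overlaps (dark bars) or approaches within 1 kb (light bars), by CpG count of the window (x axis); error bars are 95% Wilson intervals for counting error only. Windows with 5 to 9 CpG had a region within 1 kb most often (6.86%), and 7 of the 17 windows of the 10 genes fall in the class of 30 CpG or more (2.31%).

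A further sequence lies inside a region. The hairpin of the microRNA Mir7081, in the distal part of Dnmt1, falls wholly within the Dnmt1 region of the largest fold, and its letters are the only ones of a region that the reference tables hold. It contains 2 CpG, in capitals.
Mir7081 hairpin, chr9:20914090-20914164, minus strand: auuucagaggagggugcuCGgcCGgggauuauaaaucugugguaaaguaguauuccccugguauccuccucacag

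Each region carries the authors' deposited values. The tag count is the number of Control reads kept in the region, the fold is the Control height at the summit over the cKO background (so it runs as Control over cKO), and the FDR is the authors' false discovery rate, which MACS is known to estimate by swapping the libraries. The list gives no cKO tags, but they could be worked out from the authors' score, which fixes the cKO background expected in the region. In this way a whole number of cKO tags was obtained for 31 of the 41 regions and an upper limit for 6, while 4 gave none. The cKO count was then scaled by the totals of kept tags (15039206 in cKO, 9782276 in Control) and written as a percent of the Control count, called the remaining cKO signal. Only these totals were matched: removal of duplicates had kept 76.1% of cKO and 44.8% of Control tags, and its part in the values was not tested. The 95% interval of the remaining signal (exact Clopper-Pearson) covers counting error only. For tags summed over the regions of a gene, it leaves out the spread between those regions. In bulk DNA, methylation left in knockout cells and DNA from cells that escaped the deletion cannot be told apart. Regions enter the list only when Control exceeds cKO, so the remaining signal describes listed regions and not whole genes. The authors' p limit of 1e-10 also caps the remaining signal of a listed region, and the cap is lower at fewer Control tags.

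Over the 31 regions the cKO count ran from 7 to 110 tags with a median of 47, and the Control count from 26 to 346 with a median of 123. Before scaling, the middle 50% of the regions lay between 39.5 and 62.5 tags in cKO and between 93.5 and 224.5 tags in Control, while the full ranges were both wide. The remaining cKO signal had a median of 19.5% and ran from 9.1 to 40.9%, against a median of 20.3% over 30540 regions of the whole list. The members lay on both sides of that value, 16 below it and 15 at or above it. The largest upper bound of any interval was 58.9%, so each of the 31 regions held less cKO than Control signal beyond counting error, as the selection of the list requires.

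**Figure D2:**
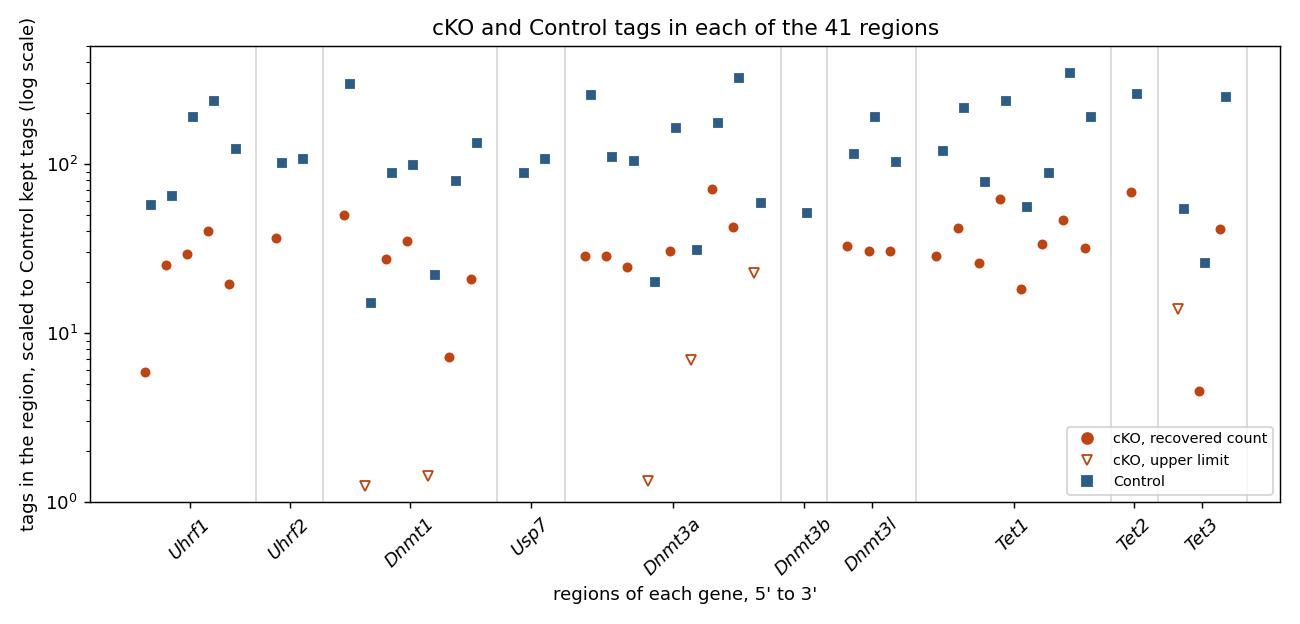
Tags in each of the 41 regions on a log scale, with cKO scaled to the kept-tag total of the Control library (y axis), grouped by gene and ordered 5′ to 3′ (x axis); circles are recovered cKO counts, open triangles upper limits for cKO, and squares Control counts. Control counts reach 346 in Tet1, and Usp7 and Dnmt3b have Control values only.

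**Figure D3:**
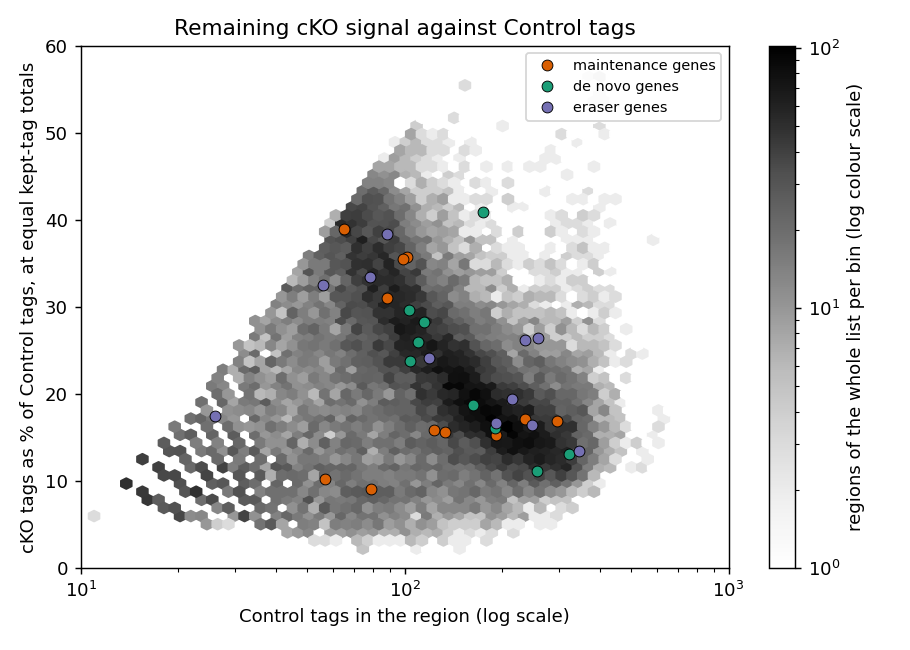
Remaining cKO signal in percent of Control, at equal totals of kept tags (y axis) against Control tags on a log scale (x axis), with the whole list as grey bins and the regions of the 10 genes as coloured points; 12 regions of the list lie outside the axes. The points lie between 9.1% at 79 Control tags in Dnmt1 and 40.9% at 175 Control tags in Dnmt3a, with 17.5% at the fewest tags (26, Tet3) and 13.5% at the most (346, Tet1).

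Each of the 10 genes carried a region within its widened span, as did 47.4% of 21883 protein-coding genes. The 10 genes are longer than most, with a median span of 65.8 kb against 17.2 kb. Among the 7921 genes whose span lay between those of the shortest and the longest member (median 39.8 kb), 62.6% had a region. Regions of an FDR of at most 5% were found at 8 of the 10 genes, against 35.1% of all protein-coding genes and 47.2% of those in that span range. At least 2 regions were found at 8 members, against 36.8% of genes in the span range, and at least 3 at 6 members, against 21.1%. Dnmt3a had 9, Tet1 8, Dnmt1 7 and Uhrf1 5 regions, of which 5, 5, 3 and 4 had an FDR of at most 5%. At least 9 regions were found at 0.593% of genes in that range, at least 8 at 0.959%, at least 7 at 1.81% and at least 5 at 6.21%. Tet2 and Dnmt3b had 1 each, the fewest among the members and equal to the median of 1 over genes in that range. The counts describe 10 genes that were chosen with earlier results of these data known, and they were not tested.

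Region by region, the members resembled the rest of the list. Of the 41 regions, 24 reached a fold of 10 (58.5%, against 64.6% of all regions), and an FDR of at most 5% for 22 (53.7%, against 56.9%). The median member region had 107 Control tags, a fold of 11.0 and a length of 487 bp, against 103 tags, 12.2 and 475 bp over the list. By role, 8 of 16 regions of the maintenance genes, 7 of 13 of the de novo genes and 7 of 12 of the TET genes had an FDR of at most 5%. The median remaining cKO signal was 16.9% over 11 maintenance regions, 23.8% over 9 de novo regions and 24.1% over 11 TET regions, and these differences were not tested. Without Uhrf1, where copies and methylation cannot be told apart, the 6 other maintenance regions had a median of 24.0%. When each span was cut into 5 equal parts from 5′ to 3′, these held 8, 5, 8, 8 and 10 region summits, so the members' regions were spread along the genes. Over all genes of that span range the shares ran between 17.3% in the first part and 22.5% in the last.

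**Figure D4:**
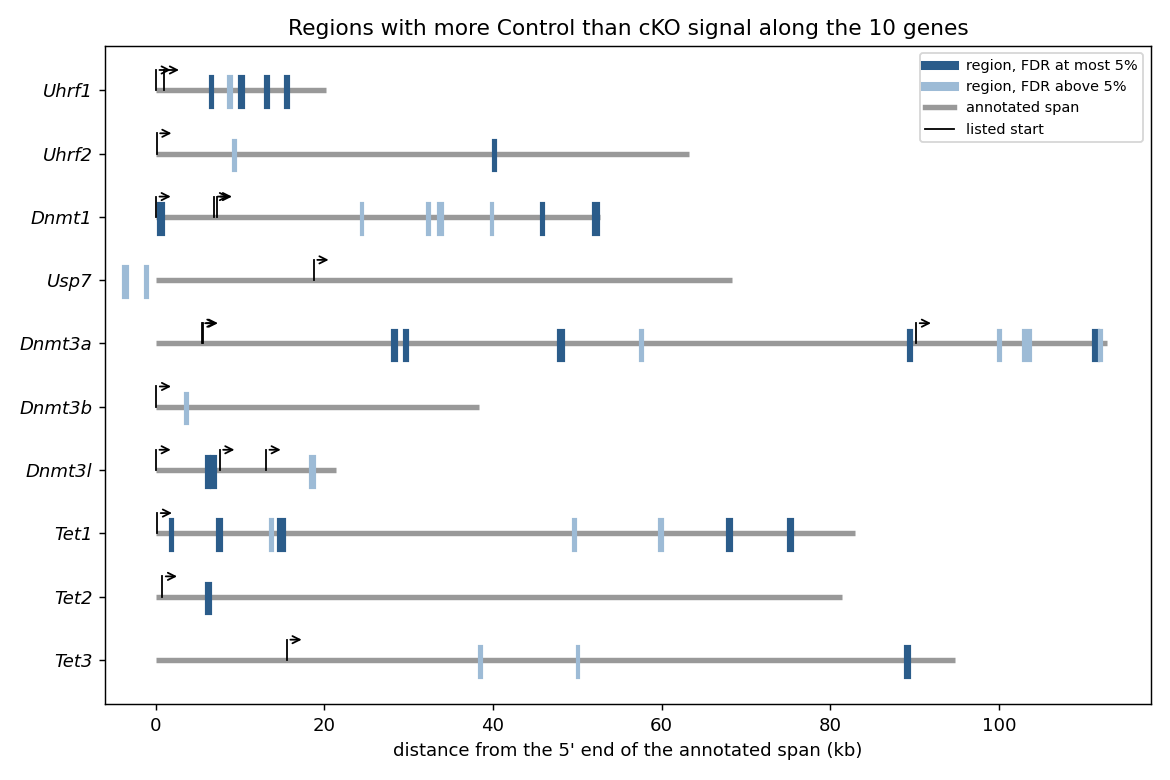
Position of the 41 regions along the 10 genes, drawn to scale in kb from the 5′ end of each annotated span (x axis), with dark bars for regions of an FDR of at most 5%, pale bars for the others and bent arrows for listed transcription starts. Uhrf1 holds 5 regions in the middle of a short span, Dnmt3a and Tet1 hold 9 and 8 spread along long spans, and the 2 regions of Usp7 lie outside its span.

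Uhrf1, the targeted gene (chromosome 17, 56303337 to 56323486, plus strand), held 5 regions, all inside its span and all downstream of both listed starts. The first, at 56309775 to 56310137, began 5462 bp beyond the inner start and had 9 cKO and 57 Control tags, a remaining signal of 10.3% (4.5 to 20.9), a fold of 24.6 and an FDR of 0.74%. The second, at 56311880 to 56312392, had 39 cKO and 65 Control tags, or 39.0% (25.5 to 58.9), with a 7.32-fold excess and an FDR of 100%. These neighbours, 1742 bp apart, thus held similar Control counts over unlike lengths of 363 and 513 bp. Their intervals for the remaining signal did not overlap, but the p limit of the list caps both values and the difference was not tested.

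The other 3 Uhrf1 regions were deeper and close to each other in remaining signal. The region at 56313261 to 56313839 had 45 cKO and 191 Control tags (15.3%, 14.0-fold). The one at 56316277 to 56316806 had 62 cKO and 235 Control tags (17.2%, 11.1-fold). The last, at 56318693 to 56319155 and 77.2% along the span, had 30 cKO and 123 Control tags (15.9%, 12.7-fold). All 3 had an FDR of at most 0.02%. Over the 5 regions there were 185 cKO and 671 Control tags, a remaining signal of 17.9% (15.2 to 21.1), within the 16.6 to 35.7% of the other genes with a recovered value. The cKO library thus still held DNA from each of these stretches of Uhrf1, although fewer copies of the gene and less methylation cannot be told apart inside it. Windows at the starts, including the sequence with 33 CpG shown above, had no region nearer than 5413 bp.

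Dnmt1, the maintenance methyltransferase that UHRF1 recruits (chromosome 9, 20907206 to 20959888, minus strand), held 7 regions. Mouse Dnmt1 is known for alternative first exons, some of them used in germ cells, and RefSeq lists 3 starts here. The deepest region, at 20958971 to 20959587, lay 301 bp downstream of the outermost start, whose window has 2 CpG. It had 77 cKO and 296 Control tags, a remaining signal of 16.9% (13.0 to 21.8) and an 11.9-fold excess, with an FDR of 0%. The windows of the middle and innermost starts, with 12 and 33 CpG, had no region nearer than 5742 and 6098 bp.

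The other 6 Dnmt1 regions lay in the downstream part of the gene, between 46.4 and 99.2% of the span. At 20935330 to 20935566 the Control library had 15 tags, and at 20919866 to 20920136 it had 22, with at most 1 and 2 cKO tags. Both were thin, with FDR values of 100 and 38.3%, although their folds were 33.0 and 29.7. Between them, the regions at 20927384 to 20927768 and 20925832 to 20926451 had 42 cKO against 88 Control tags and 54 cKO against 99 Control tags. Their remaining signals, 31.0 and 35.5%, were the highest of Dnmt1, and their folds, 6.56 and 4.87, the lowest.

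Towards the 3′ end of Dnmt1 the remaining signal was lower again. The region over Mir7081, at 20913812 to 20914223, had 11 cKO and 79 Control tags, or 9.1% (4.3 to 17.1), the lowest recovered value of all members, and the largest fold, 34.8. The region at 20907275 to 20907968 began 69 bp inside the annotated 3′ end and had 32 cKO and 133 Control tags (15.6%, 15.0-fold). Both had an FDR of at most 0.02%. Over its 5 regions with a recovered count, Dnmt1 had 216 cKO and 695 Control tags, a remaining signal of 20.2% (17.3 to 23.6), beside 17.9% (15.2 to 21.1) in Uhrf1.

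Usp7, the deubiquitinase (chromosome 16, 8688722 to 8757067, minus strand), had no region inside its span. Both of its regions lay upstream, at 8757950 to 8758343 and 8760420 to 8760953, which is 883 and 3353 bp beyond the outer end of the span and 19608 and 22078 bp from the listed start. They had 107 and 88 Control tags, folds of 5.15 and 5.57 and an FDR of 100%, and no cKO count could be recovered for either. The Usp7 start window, with 63 CpG, had more CpG than any other member window. The nearest region outside the 5 kb limit of any member also belonged to Usp7. It lay 6122 bp from the span and had 92 Control tags, with a larger fold (21.9) and a lower FDR (0.02%) than both regions inside the limit.

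Uhrf2, the relative of Uhrf1 (chromosome 19, 30030430 to 30093726, plus strand), had 2 regions inside its 63.3 kb span. The region at 30039567 to 30039992, 9054 bp downstream of the start, had 56 cKO and 102 Control tags, a remaining signal of 35.7% and a 5.24-fold excess (FDR 43.1%). The region at 30070416 to 30070834, at 63.4% of the span, had 107 Control tags, a fold of 8.01 and an FDR of 4.01%, with no recovered cKO count. Uhrf2 and Usp7 together thus held 4 regions with folds of at most 8.01. Of the 12 regions of Uhrf1 and Dnmt1, 9 had a fold of at least 10, where 64.6% of all listed regions did. These 9 include the thin Dnmt1 regions of 15 and 22 Control tags.

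Dnmt3a, a de novo methyltransferase (chromosome 12, 3801559 to 3914443, plus strand), held 9 regions, the most of any member, in the longest span. In the mouse it is also transcribed from an internal start that gives a shorter form in germ cells and embryonic stem cells. A region at 3890763 to 3891295 lay 449 bp upstream of the internal start at 3891744, within the long noncoding gene Gm31623. It had 47 cKO and 163 Control tags, a remaining signal of 18.8% (13.3 to 26.1) and a 12.6-fold excess, with an FDR of 0%. The outer starts, whose windows overlap each other and hold 46 and 47 CpG, had no region nearer than 22336 bp.

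The first intragenic regions of Dnmt3a were neighbours 872 bp apart with the same cKO count. At 3829545 to 3830155 there were 44 cKO and 256 Control tags (11.2%, 7.9 to 15.4, 18.4-fold). At 3831028 to 3831498 there were 44 cKO and 110 Control tags (26.0%, 17.9 to 37.2, 11.4-fold). The neighbours were 611 and 471 bp long, and their counts were not adjusted for length. Their intervals for the remaining signal did not overlap, but the p limit of the list caps both values and the difference was not tested. Farther on, the region at 3849285 to 3849933 had 38 cKO and 104 Control tags (23.8%, 9.05-fold). The thin region at 3859043 to 3859294, which shares 2 bp with the antisense transcript gene Dnmt3aos, had at most 2 cKO and 20 Control tags (33.0-fold, FDR 54.8%).

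At the 3′ end of Dnmt3a 4 regions fell between 88.6 and 99.3% of the span. The region at 3912726 to 3913429 was the deepest of the gene, with 65 cKO and 322 Control tags, a remaining signal of 13.1% (9.9 to 17.2) and a 14.9-fold excess. Only 32 bp separated it from the region at 3913462 to 3913859, which had at most 35 cKO and 59 Control tags and a 5.42-fold excess (FDR 100%). The wide region at 3904428 to 3905371 had 110 cKO and 175 Control tags, and its 40.9% (31.9 to 52.2) was the highest remaining signal among the 31 regions with a recovered count. The region at 3901506 to 3901793 had at most 10 cKO and 31 Control tags (9.31-fold, FDR 100%). The 3′ end of Dnmt3a thus held both strong and weak regions within a few kb.

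Dnmt3b, the other de novo methyltransferase (chromosome 2, 153649411 to 153687730, plus strand), had a single region. It lay at 153652861 to 153653236, 3412 bp downstream of the start, with 51 Control tags, a fold of 8.05 and an FDR of 100%, and its cKO count could not be recovered. The gene therefore had no region of an FDR of at most 5%. Its start window held 30 CpG.

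Dnmt3l, the cofactor of Dnmt3a and Dnmt3b (chromosome 10, 78042287 to 78063622, plus strand), had 3 regions in 21.3 kb. A pair of regions 155 bp apart stood upstream of its middle start at 78049842. The nearer one, at 78048842 to 78049452 and 390 bp from the start, had 47 cKO and 190 Control tags (16.1%, 11.4 to 22.2, 14.5-fold, FDR 0%). The farther one, at 78048295 to 78048686, had 50 cKO and 115 Control tags (28.3%, 19.9 to 39.7, 10.6-fold, FDR 4.07%). As in Dnmt3a, the cKO counts of the neighbours were close and the Control counts differed. The nearer region was longer, with 611 against 392 bp, and the counts were not adjusted for length. Here the intervals for the remaining signal overlapped. The region at 78060624 to 78061110, at 87.3% of the span, had 47 cKO and 103 Control tags (29.7%, 9.61-fold, FDR 12.1%). The outer starts of Dnmt3l had no region nearer than 5240 bp to their windows.

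Tet1, which oxidises 5-methylcytosine (chromosome 10, 62804570 to 62887469, minus strand), held 8 regions, all with a recovered cKO count. They fell into groups of 4 with 34130 bp between them, with summits at 2.3 to 18.2% and at 59.8 to 90.7% of the span. The 4 towards the start lay within the long noncoding gene Gm51805. The region nearest the start, at 62885440 to 62885818 and 1506 bp downstream of it, had 44 cKO and 119 Control tags (24.1%, 11.0-fold, FDR 0.74%). The next, at 62879565 to 62880271, had 64 cKO and 214 Control tags (19.5%, 12.9-fold). The regions at 62873573 to 62873977 and 62872162 to 62873019 were 553 bp apart. They had 40 cKO against 78 Control tags (33.4%, 8.05-fold, FDR 75.2%) and 95 cKO against 236 Control tags (26.2%, 10.1-fold).

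The distal group of Tet1 held both shallow and deep regions. The region at 62837665 to 62838031 had 28 cKO and 56 Control tags (32.5%, 9.38-fold, FDR 100%). The region at 62827253 to 62827767 had 52 cKO and 88 Control tags (38.4%, 5.78-fold, FDR 96.3%). The next, at 62819107 to 62819760, had the most Control tags of all 41 regions, 346, against 72 in cKO, a remaining signal of 13.5% (10.4 to 17.5) with a 14.0-fold excess. The last, at 62811899 to 62812459, had 49 cKO and 191 Control tags (16.7%, 11.9 to 22.9, 13.4-fold). Over all 8, Tet1 had 444 cKO and 1328 Control tags, a remaining signal of 21.7% (19.5 to 24.2).

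Tet2 and Tet3, the remaining dioxygenases, had 1 and 3 regions, against a median of 1 over genes in the member span range. At least 3 were found at 21.1% of those genes. Tet2 (chromosome 3, 133463677 to 133545136, minus strand) had 1, at 133538597 to 133539129 and 5261 bp downstream of its start, whose window holds 57 CpG. It had 105 cKO and 258 Control tags, a remaining signal of 26.5% (20.9 to 33.3) and an 8.61-fold excess with an FDR of 0%. By Control tags it stood at percentile 89.8 of the list but by fold at percentile 25.5.

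Tet3 (chromosome 6, 83362373 to 83457208, minus strand) had 3 regions, none within 22857 bp of its listed start. The region near the 3′ end, at 83367782 to 83368363, had 63 cKO and 248 Control tags (16.5%, 12.3 to 21.9, 14.0-fold, FDR 0%). The region at 83406949 to 83407197 had 7 cKO and 26 Control tags, and its 17.5% carried a wide interval (6.4 to 41.4) and an FDR of 100%. The region at 83418459 to 83418821 had at most 21 cKO and 54 Control tags (11.2-fold, FDR 75.7%). Of the 12 TET regions 7 had an FDR of at most 5% (58.3%, against 56.9% of all listed regions). Tet1, with 8 of the 12 regions, held 5 of these.

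The size of a fold and the depth of a region did not rank the members alike. Of the 4 largest folds among the 41 regions (34.8, 33.0, 33.0 and 29.7), 3 belonged to regions of 15, 20 and 22 Control tags. At these 3 regions, in Dnmt1 and Dnmt3a, the background implied by the score equalled the genome-wide mean of the library, 0.303 tags per 58 bp, and the folds were 10, 10 and 9 Control tags at the summit over that mean. Their FDR values ran from 38.3 to 100%, so the large folds rest on few tags. The 4 regions with the most Control tags, in Tet1, Dnmt3a, Dnmt1 and Tet2, had folds between 8.61 and 14.9 and an FDR of 0%.

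Further genes of methylation biology were looked up in the same way. Of 55 genes in 6 lists, all found in the RefSeq table, 31 carried a region under the same rule (56.4%, against 47.4% of all protein-coding genes), and 20 had one of an FDR of at most 5% (36.4%, against 35.1%). The 55 genes had a median span of 21.0 kb, against 17.2 kb over all protein-coding genes, and their shares were not matched for length. Methyl-CpG readers had regions at 4 of 8 genes, with the largest folds at Mbd2, whose protein was also the capture reagent (36.2), and Zbtb38 (16.9). Genes of base repair, deamination and the Gadd45 family had them at 6 of 9, led by the cytidine deaminase gene Apobec3 (16.6) and the uracil glycosylase gene Smug1 (14.3). Chromatin partners had them at 9 of 14. Among these Hdac1, a histone deacetylase gene, had 21 cKO and 249 Control tags (5.5%, 40.5-fold), and Kdm1b, a histone demethylase gene, had 9 cKO and 82 Control tags (7.1%, 36.7-fold).

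Partners of replication had regions at 3 of 6 genes, with Rpa1, for a single-strand DNA binding subunit (11.5-fold), and Rfc1, for a clamp loader subunit (13.5-fold, FDR 42.6%), as examples. Genes of the methyl donor cycle had them at 6 of 11, among them Mtrr and Mtr, which keep methionine synthase active and encode it, with 3 cKO against 39 Control tags (49.1-fold) and 4 cKO against 47 Control tags (40.3-fold). Genes linked to TET activity had them at 3 of 7, led by the mitochondrial channel gene Vdac1, with 11 cKO against 139 Control tags (5.1%, 40.3-fold), and Dppa3, known for protecting methylation in the mouse zygote (22.0-fold). The regions named in these lists were picked for a large fold, so they stand above typical regions by choice, and their values are a description.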

How the data were processed

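MBD-seq compared 1 Uhrf1 cKO library with 1 Control library of mouse chondrocytes. Per the file headers, the authors called regions with MACS 1.4.2, with Control as the enriched file, cKO as background, a p limit of 1e-10, at most 1 tag per position, d of 58 bp and the larger library scaled to the smaller. Of 19760028 cKO tags 15039206 were kept (76.1%), and of 21831989 Control tags 9782276 (44.8%), per the file headers. The submitters' processing notes name mm10 as the build. Which aligner was used is not given in the sources used here.

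The deposited list gives, per region, the count of Control tags, a score (minus 10 times the log10 of the authors' p), a fold ratio of Control over cKO background and an FDR in percent. The precision of each value is limited by its tags, 15 to 346 per member region.

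The score was read as the Poisson chance of more than the listed tags, and solved for the cKO mean. Divided by the library ratio (0.650), this mean was within 0.02 of a whole number of tags for 85.4% of 35861 regions, where the tolerance alone gives 4%. The Control height at the summit, from the fold, was within 0.1 of a whole number for 95.7% (tolerance alone 20%), and for 99.9% of those with whole cKO tags. A cKO count was used only where both were whole. Where the mean matched the 1 kb or 10 kb surroundings or the genome mean, the region holds at most that many cKO tags. This step was chosen after seeing the data. On 1832 simulated regions, scored with the same Poisson formula, it returned the simulated cKO background in 100%. That run checks the arithmetic alone. It cannot show that the authors' scores were made this way, and it held no 1 kb or 10 kb backgrounds.

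Spans, starts and sequences come from RefSeq (GRCm38.p6, the assembly mm10 names). Exons, introns and the letters of most regions were not analysed here. Motifs were not searched beyond CpG counts, and both strands give the same count. The members and lists were chosen with earlier results of these data known. Named genes are all members and, per further list, up to 2 with the largest fold, first among regions with an FDR of at most 5%. Alternatives were stricter p (1e-15, 1e-20), FDR or tag limits (50), other windows and overlaps, joined regions (under 500 bp apart), and Uhrf1 left out. Computing used SciPy 1.17.1, NumPy 2.4.6, Matplotlib 3.10.9 and pandas 2.3.3 under Python 3.11.15.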

Additional observations from a re-analysis of the deposited data

How the results depend on the processing

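No paired analysis was possible because each genotype had 1 library, and no replicate could be left out. The 41 regions became 39 with the gene spans alone, 45 with 10 kb flanks, 31 at a p of at most 1e-15, 25 at 1e-20 and 22 at an FDR of at most 5%. At least 8 of the 10 genes had a region under every alternative, or 9 of 9 without Uhrf1. Usp7 and Dnmt3b lost their regions at both p limits and at the FDR limit. The count of regions per gene moved by over 1.5 times at 7 of the 10 genes at the FDR limit (among them Dnmt1 with 3 of 7 regions, Dnmt3a with 5 of 9 and Tet1 with 5 of 8) and at 6 at 1e-20. The share of protein-coding genes with a region was 38.2% with spans alone, 54.7% with 10 kb flanks, 43.3% at 1e-15, 39.9% at 1e-20, 35.1% at the FDR limit and 42.9% with at least 50 tags, against 47.4% as reported. The median Control count was 175 tags at 1e-20 and 190.5 at the FDR limit, where the median length was 570 bp. The median fold lay between 10.5 and 12.8 under these alternatives, and was not taken for joined regions. The median remaining cKO signal was 16.7% at the FDR limit and 23.9% without Uhrf1, and for the maintenance genes 24.0% without Uhrf1 (16.9% with it). Depth limits thin regions most: 5 of the 41 had fewer than 50 Control tags.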

Other observations

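The background at the genome-wide mean, seen at 3 regions of Dnmt1 and Dnmt3a, was also found elsewhere in the list. It applied to 1802 regions (5.02%), with a median of 18 Control tags, a median fold of 33.0 and a median FDR of 80.5%. Among the 586 regions with a fold of at least 50 it applied to 217 (37.0%), and among the 12 with a fold of at least 100 to 6. At these regions the listed fold is a multiple of 3.30 for each Control tag at the summit.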
